A study of Mus musculus with 16 samples.

Results

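Tetrahydrobiopterin (BH4) is a pterin cofactor that cells build from GTP, and 5 genes of its metabolism were followed here. They are *Gch1*, *Gchfr*, *Pts*, *Spr* and *Qdpr*, taken by gene name from a count table of 54532 genes. *Gch1* was picked because the effect of prostaglandin E2 (PGE2) on it differed between unstimulated and stimulated cells in these same samples, and the other 4 genes because they act in the same pathway. The pattern across the 4 groups that chose *Gch1* is therefore described without a test. RNA-seq was made from CD8+ T cells of C57BL/6J mouse spleen, which were naive when isolated and went through repeated rounds of activation in a 4-day culture that keeps TCF1, a transcription factor of stem-like T cells. All 16 samples received low-dose IL-2 (85 U per ml) for 4 h. In 2 of the 4 groups, beads carrying anti-CD3 and anti-CD28 antibodies were added with the IL-2 at 1 bead per cell, and these cells are called stimulated. In 1 group of each kind the cells had first spent 1 h with 100 ng per ml PGE2, and the other groups are called untreated. Each group had 4 replicates. The sources do not say whether replicates came from separate mice, so p-values measure the spread between these samples, which may be technical. Unstimulated cells had also met beads during the earlier culture, and no sample lacked IL-2.

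GTP cyclohydrolase 1, encoded by *Gch1*, carries out the first and usually rate-limiting step of BH4 synthesis. The products of *Pts* (6-pyruvoyltetrahydropterin synthase) and *Spr* (sepiapterin reductase) complete the route. *Gchfr* encodes a small regulator that binds GTP cyclohydrolase 1 and mediates feedback inhibition by BH4, and *Qdpr* encodes dihydropteridine reductase, which regenerates BH4 after use. Tyrosine and tryptophan hydroxylases, nitric oxide synthases and alkylglycerol monooxygenase use BH4 as a cofactor. In T cells, *Gch1* is known as a gene induced by activation, and BH4 is known to aid proliferation. PGE2 is a lipid mediator that acts on T cells through receptors that raise cAMP.

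All 5 genes were found once in the table, with coordinates on GRCm38. *Gch1* (ENSMUSG00000037580) lies on the minus strand at chr14:47153895-47189413, and its principal transcript has 6 exons. *Gchfr* (ENSMUSG00000046814) lies on the plus strand at chr2:119167773-119172390, *Pts* (ENSMUSG00000032067) on the minus strand at chr9:50521617-50528724, *Spr* (ENSMUSG00000033735) on the minus strand at chr6:85130176-85137766 and *Qdpr* (ENSMUSG00000015806) on the minus strand at chr5:45434021-45450236. The 5 genes thus sit on different chromosomes. In the GENCODE M21 annotation, *Qdpr* shares 332 exon bases with the antisense gene *Gm42413*, which had 0 counts in every sample. No exon base of the other 4 genes is shared with another annotated gene.

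The 250 bases before the RefSeq start of *Gch1* and *Qdpr* (GRCm38.p6) are shown because these 2 genes were both higher in stimulated cells but differed in their relation to PGE2. They are written 5′ to 3′ on the strand of the gene, and capitals mark the matches to the motifs searched. The *Gch1* window is chr14:47189414-47189663 and the *Qdpr* window is chr5:45450230-45450479, both on the minus strand.
Gch1: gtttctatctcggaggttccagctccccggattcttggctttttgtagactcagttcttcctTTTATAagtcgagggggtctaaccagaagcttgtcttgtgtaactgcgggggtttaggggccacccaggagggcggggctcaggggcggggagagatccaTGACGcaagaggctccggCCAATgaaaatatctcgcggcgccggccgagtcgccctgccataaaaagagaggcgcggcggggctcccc
Qdpr: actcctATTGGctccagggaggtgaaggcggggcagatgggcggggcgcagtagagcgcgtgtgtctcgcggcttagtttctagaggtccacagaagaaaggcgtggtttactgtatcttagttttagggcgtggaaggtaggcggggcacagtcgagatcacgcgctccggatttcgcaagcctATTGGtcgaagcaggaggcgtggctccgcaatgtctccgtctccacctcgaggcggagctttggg

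The motifs were searched on both strands, also where they overlapped each other. They were the full cAMP response element (CRE) TGACGTCA, its short form TGACG, the CCAAT box CCAAT, the AP-1 site TGANTCA, the NFAT core GGAAA and the TATA box TATAAA. The *Gch1* window held a short CRE site 88 to 84 bases before the start and a CCAAT box 70 to 66 bases before it, both on the gene strand. It also held TATAAA on the opposite strand, 188 to 183 bases before the start. Among 32851 RefSeq promoter windows of this length, 17.8% held the short CRE site, 33.8% the CCAAT box and 12.4% TATAAA. Both the short CRE site and the CCAAT box were present in 6.12%, and in 2.51% they began within 30 bases of each other. The pair and its spacing were not part of the planned motif list. These 2 shares are therefore no measure of how unusual the *Gch1* window is. The *Qdpr* window held 2 CCAAT boxes on the opposite strand, 244 to 240 and 65 to 61 bases before the start. The window of *Gchfr* held 1 CCAAT box and 1 NFAT core, and that of *Spr* held 3 NFAT cores, a motif present in 55.6% of all windows. The *Pts* window held none of the motifs. No member's window held the full CRE (1.55% of all windows) or the AP-1 site (6.75%). Matches of this kind describe letters and not binding.

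**Figure D1:**
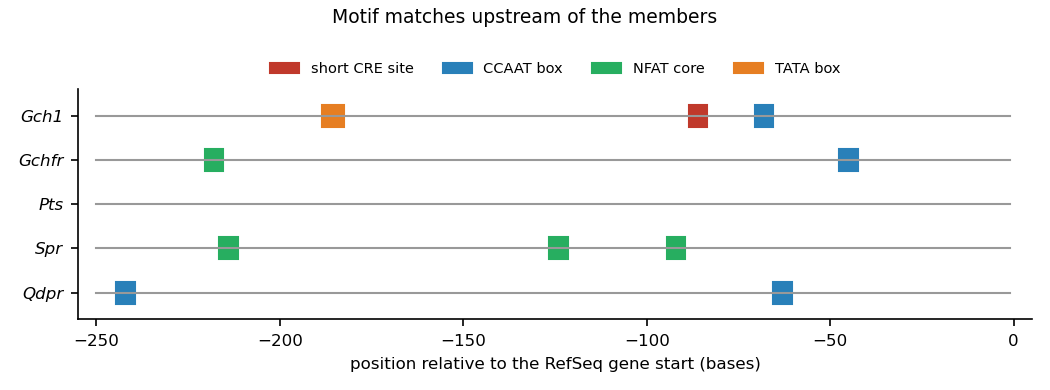
Position of each motif match in the 250 bases before the RefSeq start (x axis, bases relative to the start) of the 5 genes, with 1 row a gene and 1 colour a motif. The short CRE site is found in the *Gch1* row alone, 88 to 84 bases before the start, and the *Pts* row has no match.

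The samples held 22678254 to 42950763 counts in genes (median 30211840.5), and 15096 genes passed the filter on low counts in the fit of all samples. Levels are given as CPM, counts scaled to library size with TMM factors, and levels of different genes are compared only per length. Replicates of a group differed by more than counting noise, with a chi-square per degree of freedom of 7.81 to 51.3. The CD8 T cell markers *Cd3e*, *Cd8a*, *Cd8b1* and *Tcf7* were all detected and summed to 1889 to 3620 CPM. Markers of other cells were low in every sample. *Cd4* reached at most 1.87 CPM, 3 B cell genes together 5.37 CPM, 4 myeloid genes 0.507 CPM, 2 endothelial genes 0.573 CPM, 2 erythroid genes 0.423 CPM and 2 NK cell genes 0.0999 CPM. *Ncr1* and *Hbb-bs* had 0 counts in all 16 samples. In bulk RNA, fewer cells that express a gene and less of its RNA per cell cannot be told apart.

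*Gch1* was lowest in unstimulated untreated cells, where it stood at 14.4, 12.8, 15.9 and 16.5 CPM in replicates 1 to 4 (mean 14.9 ± 1.67, SD, n = 4; 326 to 566 counts). In unstimulated cells with PGE2 it stood at 33.5, 29.1, 31.0 and 26.1 CPM (29.9 ± 3.09, SD, n = 4). Every sample with PGE2 lay above every untreated sample, and these 2 groups failed to overlap in 28.9% of the genes tested. Stimulated untreated cells had 82.1, 69.2, 61.1 and 59.5 CPM (68.0 ± 10.3, SD, n = 4). Stimulated cells with PGE2 had 69.3, 58.3, 47.8 and 47.6 CPM (55.7 ± 10.3, SD, n = 4). The 2 stimulated groups overlapped, and both lay wholly above the unstimulated groups. Stimulated and unstimulated samples failed to overlap in 61.6% of the genes tested without PGE2 and in 60.2% with it. PGE2 alone thus went with a level between those of unstimulated untreated and stimulated untreated cells, while PGE2 before beads went with no rise above beads alone.

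**Figure D2:**
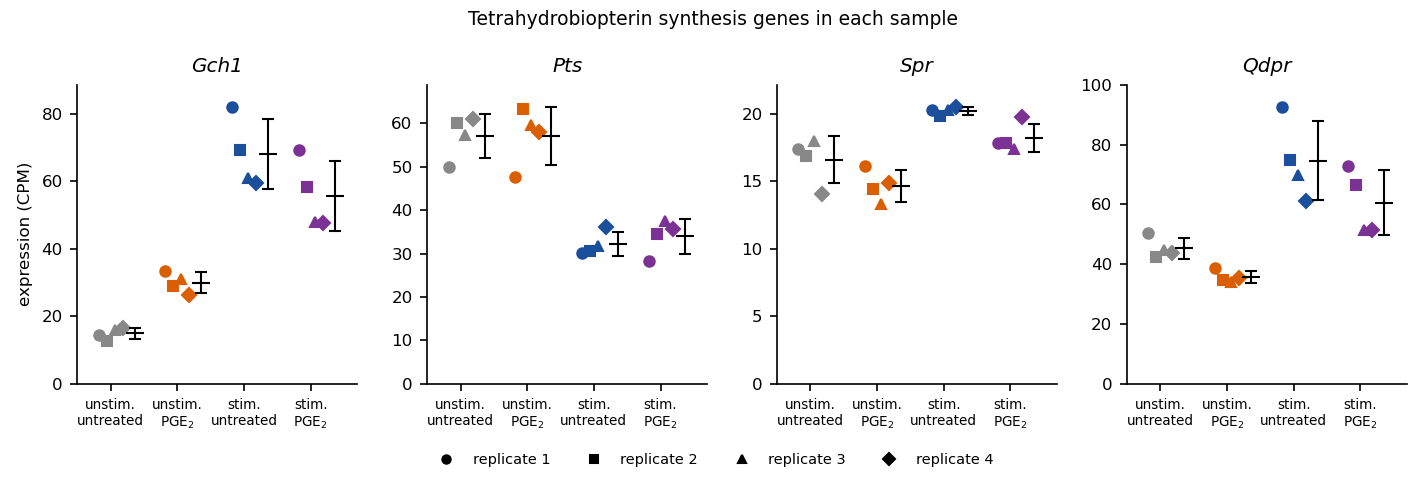
Level of *Gch1*, *Pts*, *Spr* and *Qdpr* (y axes, CPM from 0) in each of the 16 samples by group, with a symbol for each replicate number and bars for the group mean ± SD (n = 4). *Gch1* means were 14.9, 29.9, 68.0 and 55.7 CPM from left to right, *Pts* was lower and *Qdpr* higher in both stimulated groups.

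On the log2 scale, *Gch1* was higher with PGE2 by 1.02 (SE 0.0990, 2.03-fold) in unstimulated cells. In stimulated cells it was lower with PGE2, by 0.28 on this scale (log2 fold change -0.28, SE 0.138). With the replicate number as a block the SE was 0.0440 in stimulated cells (log2 fold change -0.28) and 0.0781 in unstimulated cells (1.02). Between samples of the same replicate number, the difference with PGE2 was 1.21, 1.18, 0.957 and 0.662 log2 CPM in unstimulated cells. In stimulated cells it was -0.244, -0.249, -0.354 and -0.322 log2 CPM. The signs were thus opposite in all 4 replicate numbers. The interaction, that is the PGE2 effect in stimulated cells minus that in unstimulated cells, was -1.29 (SE 0.184). For the interaction, 113 of 15096 genes passed an adjusted p of 0.05 in edgeR, and 35 were also at least 1 log2 unit from 0. The values of *Gch1* chose the gene and are given as a description only.

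Seen as responses to stimulation, the same levels gave a log2 fold change of *Gch1* of 2.18 (SE 0.125, 4.52-fold) without PGE2 and of 0.92 (SE 0.134, 1.89-fold) with PGE2. The 4 pairwise comparisons share groups, so they are not separate evidence. The mean of the responses to stimulation over both PGE2 states was tested for the other measured members. Its weights on the 4 groups are orthogonal to those of the contrast that chose *Gch1*. Both contrasts use the same 16 samples and the same estimate of spread, so for *Gch1* the mean is described without a test. The same holds for the average PGE2 effect. On the mean response to stimulation *Gch1* was higher by 1.54 (SE 0.0936). Of all genes tested, 36.3% rose and 38.2% fell on it. The average PGE2 effect on *Gch1* over both stimulation states was 0.36 (SE 0.0920). It is a mean of 2 effects of opposite sign, 1.02 and -0.28, and describes neither state. On that average, 16.4% of all genes rose and 20.2% fell.

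*Gchfr*, which encodes the feedback regulator, was scarcely detected. The 16 samples held 9 counts of it in all, 10 samples had 0 and none had more than 2. The limit that a count of 0 allows (3 counts) was 0.0764 to 0.132 CPM for a single sample, counting error only. The gene did not pass the filter in any comparison, and no difference between groups was detectable.

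*Pts*, the gene of the next synthetic step, was lower in stimulated cells. Unstimulated untreated cells had 49.9, 60.2, 57.4 and 61.0 CPM (57.1 ± 5.05, SD, n = 4), and unstimulated cells with PGE2 had 47.7, 63.3, 59.5 and 58.1 CPM (57.2 ± 6.71, SD, n = 4). Stimulated untreated cells had 30.1, 30.6, 31.8 and 36.2 CPM (32.2 ± 2.77, SD, n = 4), and stimulated cells with PGE2 had 28.3, 34.6, 37.6 and 35.6 CPM (34.0 ± 4.03, SD, n = 4). Unstimulated and stimulated samples did not overlap, whereas samples with and without PGE2 did. Stimulation separated the groups in 61.6% of all genes tested without PGE2 and in 60.2% with it. Without PGE2, *Pts* fell by 0.85 on the log2 scale with stimulation (SE 0.0851, adjusted p = 2.15e-06). With PGE2 it fell by 0.74 (SE 0.113, adjusted p = 0.000181). The PGE2 effect on *Pts* was 0.023 in unstimulated cells (SE 0.0998, adjusted p = 0.895) and 0.087 in stimulated cells (SE 0.102, adjusted p = 0.603), neither past the threshold.

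*Spr*, the gene of the last synthetic step, varied least. Unstimulated untreated cells had 17.4, 16.8, 18.0 and 14.1 CPM (16.6 ± 1.74, SD, n = 4), and unstimulated cells with PGE2 had 16.1, 14.4, 13.3 and 14.8 CPM (14.7 ± 1.16, SD, n = 4). Stimulated untreated cells had 20.3, 19.8, 20.3 and 20.5 CPM (20.2 ± 0.291, SD, n = 4), and stimulated cells with PGE2 had 17.8, 17.9, 17.4 and 19.8 CPM (18.2 ± 1.06, SD, n = 4). Stimulated samples lay above unstimulated samples of the same PGE2 state, and such groups did not overlap in 61.6% (without PGE2) and 60.2% (with PGE2) of genes tested. *Spr* rose with stimulation by 0.27 on the log2 scale without PGE2 (SE 0.0933, adjusted p = 0.0202) and by 0.33 with PGE2 (SE 0.0858, adjusted p = 0.00603). Each call was lost without a single library. Without replicate 4 of the unstimulated untreated cells the first had an adjusted p of 0.0588, and the second had 0.0570 when replicate 3 of the PGE2-treated unstimulated cells was left out. With upper-quartile scaling the values were 0.18 (adjusted p = 0.104) and 0.20 (adjusted p = 0.0683). That scaling moved the median of all genes by -0.097 and -0.127 in these comparisons. The PGE2 effect on *Spr* was -0.16 in unstimulated cells (SE 0.0938, adjusted p = 0.242) and -0.15 in stimulated cells (SE 0.0741, adjusted p = 0.233). In stimulated cells the 2 PGE2 states did not overlap, as in 17.9% of the genes tested there.

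*Qdpr*, the gene of BH4 regeneration, was higher with stimulation and lower with PGE2. Unstimulated untreated cells had 50.5, 42.3, 44.6 and 43.6 CPM (45.2 ± 3.60, SD, n = 4), and unstimulated cells with PGE2 had 38.6, 34.7, 34.0 and 35.2 CPM (35.6 ± 2.06, SD, n = 4). Each sample with PGE2 lay below each untreated sample, and groups failed to overlap in 28.9% of the genes tested. Stimulated untreated cells had 92.7, 74.7, 69.7 and 61.2 CPM (74.6 ± 13.3, SD, n = 4), and stimulated cells with PGE2 had 72.9, 66.3, 51.3 and 51.5 CPM (60.5 ± 10.8, SD, n = 4). These last 2 groups overlapped, since replicates 1 and 2 were high in both. *Qdpr* fell by 0.32 on the log2 scale with PGE2 in unstimulated cells (SE 0.0652, adjusted p = 0.00332), although in 1 fit of all 16 samples the adjusted p was 0.0533. In stimulated cells the effect of PGE2 was -0.29 (SE 0.145, adjusted p = 0.222). Between samples of the same replicate number it was -0.346, -0.171, -0.442 and -0.249 log2 CPM. With the replicate number as a block, the effect in stimulated cells was -0.30 (SE 0.0505) and passed the test (adjusted p = 0.00112). That fit called 39.8% of all genes. *Qdpr* rose with stimulation by 0.71 without PGE2 (SE 0.119, adjusted p = 0.000170) and by 0.78 with PGE2 (SE 0.123, adjusted p = 0.000225).

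**Figure D3:**
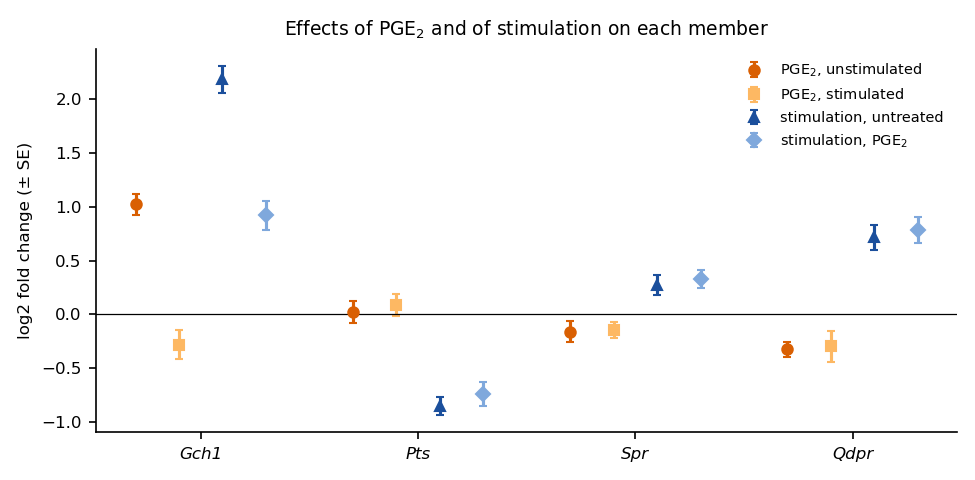
Log2 fold changes (y axis, points, with bars of 1 SE) of 4 members for PGE2 in unstimulated and stimulated cells and for stimulation in untreated and PGE2-treated cells. The 2 PGE2 effects of *Gch1*, 1.02 and -0.28, lie on opposite sides of 0, whereas those of *Pts*, *Spr* and *Qdpr* lie within 0.1 of each other.

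Over the 3 members that passed the filter besides *Gch1*, PGE2 in unstimulated cells called *Qdpr* only, at a background of 28.4% of 14505 genes. PGE2 in stimulated cells called 0 of 3, at a background of 9.84% of 13922 genes. None of the 3 had an unadjusted p under 0.05 there in edgeR, and DESeq2 also called 0 of them. With the replicate block edgeR called *Qdpr* there (adjusted p = 0.00112), in a fit that called 39.8% of all genes. Stimulation without PGE2 called all 3, with 2 higher and 1 lower, where 66.5% of 14205 genes were called. Groups did not overlap for these 3 genes, nor for 61.6% of all genes tested. Stimulation with PGE2 called the same 3 genes in the same directions, where 64.2% of 14507 genes were called and groups did not overlap for 60.2%. None of these changes reached 2-fold. The interaction of PGE2 with stimulation was 0.080 for *Pts* (SE 0.144, adjusted p = 0.956), 0.026 for *Spr* (SE 0.122, adjusted p = 0.993) and 0.041 for *Qdpr* (SE 0.175, adjusted p = 0.990). It was thus called for 0 of the 3 in edgeR, with 0.749% of all genes called, and DESeq2 called 0 as well. On the average PGE2 effect, where 36.5% of 15096 genes were called, *Qdpr* fell by 0.32 (SE 0.0874, adjusted p = 0.00761) and *Spr* fell by 0.17 (SE 0.0610, adjusted p = 0.0422). The call of *Spr* was lost in 13 of 16 fits that left out 1 library. Average stimulation effects of all 3 passed the test, at a background of 74.5%. They were 0.74 for *Qdpr*, 0.30 for *Spr* and -0.79 for *Pts*. The effect on *Gch1*, given without a test, was 1.54.

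The levels of the members relative to each other were read from the deposited FPKM values, which are per kilobase of gene. In unstimulated untreated cells, mean FPKM was 24.1 for *Qdpr*, 8.90 for *Pts*, 4.45 for *Spr* and 2.27 for *Gch1*, so *Gch1* was the lowest of the 4. With PGE2 alone *Gch1* was at 4.61 FPKM and *Spr* at 3.98. In stimulated untreated cells *Gch1* reached 10.4 FPKM against 5.01 for *Pts* and 5.43 for *Spr*, while *Qdpr* stood at 39.8. In stimulated cells with PGE2 *Gch1* stood at 8.48, *Pts* at 5.29, *Spr* at 4.88 and *Qdpr* at 32.2 FPKM. The places of *Pts* and *Spr* depend on the length used. The table's length of *Pts* is 6101 bases over all exons of 12 transcripts, whereas its principal transcript has 1046 bases. In CPM per kilobase of principal transcript, *Pts* in stimulated untreated cells was at 30.8 and *Gch1* at 24.5, and *Pts* was above *Gch1* in all 4 groups. On that scale *Gch1* with PGE2 alone was at 10.8 and *Spr* at 11.9, the reverse of their order in FPKM, and the samples of the 2 genes overlapped.

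The ratio of *Gch1* to *Qdpr* in FPKM was 0.0946 ± 0.0127 (SD, n = 4) in unstimulated untreated cells. It was 0.240 ± 0.0205 in unstimulated cells with PGE2, 0.262 ± 0.0124 in stimulated untreated cells and 0.263 ± 0.00883 in stimulated cells with PGE2. The first group stood apart from the other 3, whose values ran from 0.212 to 0.278. The 2 stimulated groups, which overlapped in *Gch1* and in *Qdpr*, had nearly equal ratios. The ratio of *Gch1* to *Pts* was 2.09 without and 1.65 with PGE2 in stimulated cells, and 0.520 in unstimulated cells with PGE2. That to *Spr* was 1.91, 1.74 and 1.16 in the same order. In both of these ratios the stimulated groups overlapped. Across the 16 samples, log2 CPM of *Gch1* and *Qdpr* had a Pearson r of 0.72, and of 0.81 once group means were subtracted. Within groups *Gch1* had an r of -0.61 with *Pts* and of -0.19 with *Spr*. *Pts* and *Qdpr* had an r of -0.91 across samples and of -0.78 within groups. These are descriptions over samples that share groups and replicate numbers.

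Around the 5 genes, 28 further genes are described, of which 20 passed the filter. The enzymes that use BH4 were scarcely detected. *Th*, *Tph1* and *Tph2*, the tyrosine and tryptophan hydroxylases, had 0 counts in all 16 samples, and 3 others had few counts over all samples, namely 5 for *Agmo* (alkylglycerol monooxygenase), 16 for *Nos1* and 50 for *Nos3*. *Nos2*, the inducible nitric oxide synthase, was the 1 of 7 that could be tested, with 8 to 101 counts a sample and group means of 1.43 to 2.09 CPM. Within every group *Nos2* rose with the replicate number, from 0.353 CPM in replicate 1 to 3.04 CPM in replicate 4 of the unstimulated untreated cells. It passed the test in none of the comparisons in edgeR. With the replicate block its response to stimulation with PGE2 was 0.52 (adjusted p = 0.0473), and its average response to stimulation was 0.49 (adjusted p = 0.00901).

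Of 3 genes tested that regenerate or salvage BH4, 1 rose and 1 fell with stimulation in each PGE2 state. Of all genes, 31.7% rose and 34.8% fell without PGE2, and 32.5% rose and 31.7% fell with it. *Cbr1*, a carbonyl reductase, fell by 0.69 on the log2 scale without PGE2 (SE 0.101, adjusted p = 5.68e-05) and by 0.64 with PGE2 (SE 0.123, adjusted p = 0.000849). *Akr1b3*, aldose reductase, rose by 0.32 (SE 0.0963, adjusted p = 0.0103) and by 0.50 (SE 0.0940, adjusted p = 0.000803). *Pcbd2* was not called in either, and *Pcbd1* had at most 1 count in a sample and was not tested. PGE2 in unstimulated cells lowered *Akr1b3* by 0.41 (log2 fold change -0.41, SE 0.0574, adjusted p = 0.000347), 1 of 3 genes tested, where 15.5% of all genes fell. In stimulated cells PGE2 called 0 of the 3 in edgeR and 1 with the replicate block, *Akr1b3*, which was lower. *Akr1b3* was the 1 gene of the 3 with an unadjusted p under 0.05 there in edgeR, and DESeq2 called 0 of the 3.

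GTP is the substrate of GTP cyclohydrolase 1, and genes of guanylate metabolism rose with stimulation. Of 8 guanylate genes tested (*Gmpr* had too few counts), 8 rose with stimulation without PGE2, where 31.7% of all genes rose, and 8 rose with PGE2, where 32.5% did. The 4 largest changes without PGE2 were *Nme2* (1.20), *Nme1* (1.00), *Impdh1* (0.95) and *Guk1* (0.84) on the log2 scale. *Nme1* and *Nme2* encode nucleoside diphosphate kinases, *Impdh1* IMP dehydrogenase and *Guk1* guanylate kinase. *Nme2* had only 11 to 40 counts a sample, and 48.9% of its exon bases are shared with the readthrough gene *Gm20390*, against 12.5% for *Nme1*. On the opposite strand, *Gmpr2* shares 39.2% of its exon bases with *Tinf2* (up to 2181 counts a sample) and 4.69% with *Nedd8* (up to 5131). PGE2 in unstimulated cells lowered 5 of the 8, where 15.5% of all genes fell, led by *Nme1* (-1.17, SE 0.108, adjusted p = 2.31e-05), with *Gmps* at -0.36, *Hprt* at -0.31 and *Impdh2* at -0.31. *Gmps* encodes GMP synthase and *Hprt* the enzyme of hypoxanthine and guanine salvage. Mean *Nme1* was 34.1 CPM in unstimulated untreated cells, 14.9 in unstimulated cells with PGE2, 68.9 in stimulated untreated cells and 44.2 in stimulated cells with PGE2. In stimulated cells PGE2 lowered 1 of the 8, *Nme1* (-0.63, SE 0.120, adjusted p = 0.0101), where 3.8% of all genes fell. With the replicate block it lowered 5 of the 8, *Nme1*, *Impdh2*, *Gmps*, *Guk1* and *Hprt*, in a fit that called 39.8% of all genes. *Impdh1*, *Gmpr2* and *Nme2* were called for PGE2 in neither stimulation state, with or without the block.

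The 8 genes of de novo purine synthesis up to IMP all passed the filter. With stimulation 7 of 8 rose without PGE2, where 31.7% of all genes rose, and 8 of 8 with PGE2, where 32.5% did. The median log2 fold changes were 1.14 and 1.55 against -0.031 and 0.0022 over all genes. *Pfas* (1.64, SE 0.109), *Gart* (1.47, SE 0.102), *Ppat* (1.45, SE 0.125) and *Adsl* (1.18, SE 0.0974) rose most without PGE2, and *Paics* was not called (-0.047, adjusted p = 0.599). *Ppat* encodes the committing amidotransferase of the route, and *Gart*, *Pfas*, *Paics*, *Adsl* and *Atic* encode the enzymes of the steps that follow. PGE2 in unstimulated cells lowered all 8, where 15.5% of all genes fell, with a median of -0.66 against -0.0010 over all genes. *Gart* stood at 111, 115, 98.8 and 112 CPM without PGE2 and at 48.2, 43.9, 37.5 and 51.3 CPM with it, a log2 fold change of -1.25 (SE 0.0869, adjusted p = 5.20e-06). *Atic* had -1.18 (SE 0.0737), *Ppat* -0.90 (SE 0.0969) and *Pfas* -0.67 (SE 0.0894). In this comparison they were lower with PGE2 and *Gch1* was higher.

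In stimulated cells PGE2 lowered 1 of the 8 purine genes, *Prps2* (-0.30, SE 0.0827, adjusted p = 0.0468), which encodes a phosphoribosyl pyrophosphate synthetase, and the median was -0.29. With the replicate block it lowered 7 of the 8, the exception being *Prps1* (adjusted p = 0.0607). Over all lists, PGE2 in stimulated cells called 2 of 20 genes, both lower, where 9.84% of all genes were called and 3.8% fell. With the replicate block it called 13 of 20, all lower, where 39.8% of all genes were called. Without the block, the count was 1 in each of 6 fits that left out a library, which were those without replicate 1, 2 or 3 of the stimulated untreated cells and those without replicate 2, 3 or 4 of the stimulated cells with PGE2. The interaction was called for *Atic* only, at 0.89 (SE 0.130, adjusted p = 0.00382), where 0.517% of all genes were called higher. Its sign is opposite to that of *Gch1*. *Gart* had an interaction of 0.90 (SE 0.205, adjusted p = 0.0522), and with the replicate block *Gart*, *Prps2* and *Ppat* passed as well (adjusted p = 0.00629, 0.0162 and 0.0485), in a fit that called 2.7% of all genes. *Ppat* and *Paics* share 272 exon bases on opposite strands, and *Gart* shares 1014 with the antisense gene *Gm15964*.

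**Figure D4:**
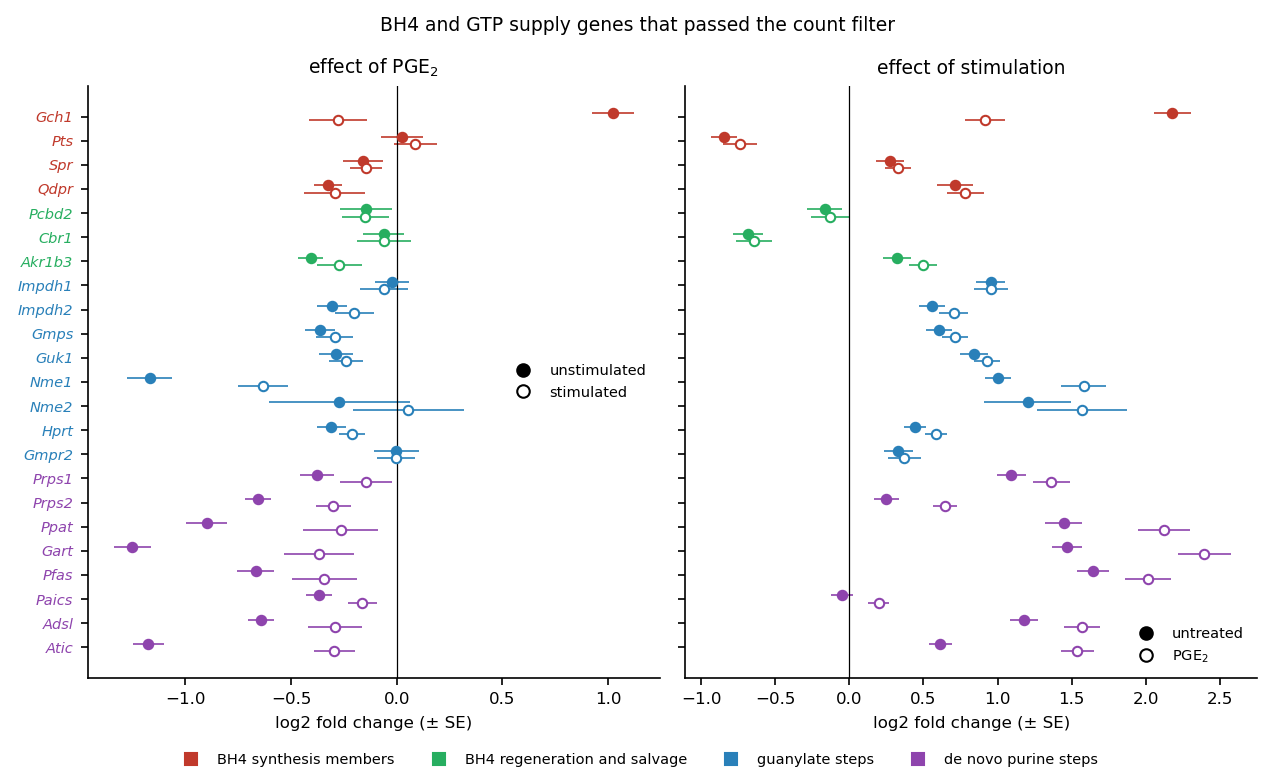
Log2 fold changes (x axes, points, with bars of 1 SE) of 23 genes for PGE2 (left, filled in unstimulated and open in stimulated cells) and for stimulation (right, filled in untreated and open in PGE2-treated cells), coloured by list. The 8 purine genes lie below 0 for PGE2 in unstimulated cells, where *Gch1* is at 1.02.

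Averaged over both stimulation states, PGE2 lowered 1 of 3 regeneration and salvage genes, 5 of 8 guanylate genes and 8 of 8 purine genes, where 20.2% of all genes fell. Averaged over both PGE2 states, stimulation raised 1 and lowered 1 of the first list, and raised 8 of 8 and 7 of 8 of the others. On this average 36.3% of all genes rose and 38.2% fell. With the replicate block *Pcbd2* fell as well on the latter average (-0.15, adjusted p = 0.0448).

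The genes whose levels most resembled those of *Gch1* were ranked by Pearson r of log2 CPM over the 16 samples, among 12252 genes whose mean reached 1 CPM. They were *Tnfaip3* (0.993), *Csnk1e* (0.990), *Slamf1* (0.978), *Ahi1* (0.974), *Adora2a* (0.970) and *Sik3* (0.968). By Spearman rho, 3 of the 6 remained among the first 6, *Tnfaip3*, *Slamf1* and *Adora2a*. *Tnfaip3*, which encodes the ubiquitin-editing protein A20, had mean levels of 166 ± 16.8, 324 ± 10.7, 589 ± 67.8 and 528 ± 55.7 CPM (SD, n = 4) in unstimulated untreated, unstimulated PGE2, stimulated untreated and stimulated PGE2 cells. Its log2 fold change with PGE2 was 0.98 in unstimulated and -0.15 in stimulated cells. *Slamf1*, a lymphocyte surface receptor, had 0.92 and -0.21, and *Adora2a*, an adenosine receptor, had 0.48 and -0.33. *Sik3*, a salt-inducible kinase, had 0.62 and 0.16, so the sign in stimulated cells was not shared by all 6. The samples behind these values share groups and replicate numbers, and the genes were picked by their likeness.

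**Figure D5:**
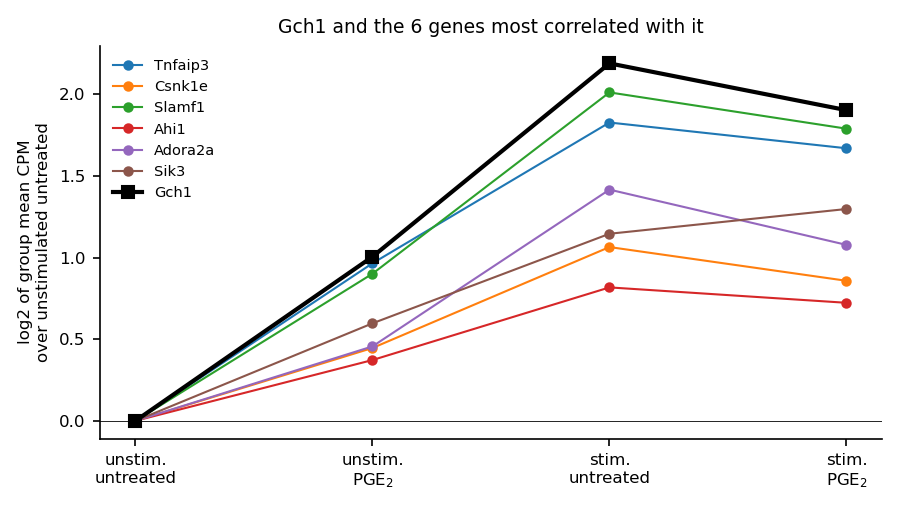
Log2 of each group's mean CPM over that of unstimulated untreated cells (y axis) for *Gch1* (black squares) and the 6 genes most correlated with it, over the 4 groups (x axis). All 7 lines are higher with PGE2 in unstimulated cells, and 6 of 7 are lower with PGE2 than without it in stimulated cells.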

How the data were processed

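RNA-seq of 16 samples was analysed, 4 in each of 4 groups taken from the sample labels. The authors made poly(A)-selected libraries, sequenced them in paired-end mode and, per the submitters' processing notes, aligned reads to GRCm38 with HISAT2 2.0.5 and counted them per gene with featureCounts 1.5.0-p3. They tested genes with DESeq2 1.20.0. The deposited counts are whole numbers without normalization, and the deposited FPKM values were derived by the authors from counts and gene lengths. The annotation release, counting options and use of strand are not given in the sources used here. The gene lengths of the 5 members equal those of GENCODE M21.

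Counts were tested with edgeR 4.0.16 in R 4.3.3 (filterByExpr with a minimum count of 10, TMM, two-sided quasi-likelihood test) on the 8 samples compared, or on all 16 for the interaction and average effects. P-values were adjusted by Benjamini-Hochberg over all genes tested, and genes were called at an adjusted p below 0.05. An SE is that of a log2 fold change. The members and lists were chosen with earlier results of these data known. Of each list, up to 4 called genes with the largest change per comparison were named, and the genes most like *Gch1* were the 6 with the highest r of log2 CPM (prior count 2). Every other gene named belongs to a list, shares exons with one or marks a cell type. Some pathway genes are not reported here and do not enter the list counts, but they stayed in every fit. Promoter windows came from RefSeq (GRCm38.p6), in which all 5 members matched by symbol. The script was tested on simulated counts.

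Alternatives were leaving out each replicate, 1 fit of all 16 samples, a replicate block, DESeq2 1.42.0, upper-quartile or RLE factors, all genes unfiltered, genes with 10 or more counts throughout, and limma 3.58.1 on log2(FPKM + 1) or log2(FPKM + 0.1) with a mean FPKM of at least 1 or on log2(FPKM + 1) unfiltered. Replicate numbers come from the labels, which do not say what they share. Deviations from group means of samples with the same number correlated at 0.137 to 0.444 for PGE2 in unstimulated cells, 0.190 to 0.423 for PGE2 in stimulated cells, 0.112 to 0.359 for stimulation without PGE2 and 0.0439 to 0.281 for stimulation with PGE2. A sample's best match in the other group had its own number in 8, 6, 8 and 5 of 8 cases, in the same order. Matching by number was thus weakest for stimulation with PGE2. The replicate block was kept as an alternative to the fits without it.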

Additional observations from a re-analysis of the deposited data

Results flagged for a closer look

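The PGE2 effect differed between stimulated and unstimulated cells for *Gch1*, by -1.29 on the log2 scale. The gene was chosen for this value, so no test is given. For *Atic*, which encodes the bifunctional enzyme of the last steps to IMP, it differed by 0.89 (SE 0.130, adjusted p = 0.00382 in edgeR). *Atic* was lower with PGE2 by a log2 fold change of -1.18 in unstimulated cells and -0.30 in stimulated cells. No member had a sample far from the other 3 of its group.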

How the results depend on the processing

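No called value changed sign under any alternative. Of the recomputed counts of calls, 269 stayed within 1.5 times the first value and 25 did not. The members called for PGE2 in unstimulated cells fell from 1 to 0 in 1 fit of all 16 samples. For PGE2 in stimulated cells they went from 0 to 1 (*Qdpr*) with the replicate block. Counts of members for the average effects included *Gch1*, although no test of it is read here. For the average PGE2 effect that count went from 3 to 1 on log2(FPKM + 1) without the filter. The listed genes called for PGE2 in stimulated cells were 2, but 5 with DESeq2 or 1 fit of all 16 samples, 1 with RLE factors, without a filter or on either FPKM scale with the filter, 0 on log2(FPKM + 1) without it, 13 with the replicate block and 1 to 2 without a replicate. Those called for the interaction were 1, but 2 with DESeq2, upper-quartile factors, no filter or at least 10 counts in every sample, 4 with the replicate block and 1 to 2 without a replicate. The 2 came without replicate 4 of the unstimulated PGE2 cells or replicate 3 or 4 of the stimulated PGE2 cells. On log2(FPKM + 1), *Gch1* was higher with PGE2 in unstimulated cells by 0.78, and its interaction was -1.04. With upper-quartile factors or no filter, *Spr* was no longer called for stimulation without or with PGE2 or for the average PGE2 effect, but it was for average stimulation. The causes were not tested. The replicate block changed the calls given beside the results above and no other. *Gchfr* and the enzymes that use BH4, apart from *Nos2*, had too few counts to be tested in the main fits.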
